A study of Mus musculus with 37 samples.

Results

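Period and cryptochrome are the proteins with which the mammalian circadian clock shuts down its own activators. The 5 genes that encode them, Per1, Per2, Per3, Cry1 and Cry2, were taken from the count table by their Ensembl identifiers. They are 5 of 56980 genes in the table, and all 5 were among the 19332 genes with enough reads to be tested. The tissue was brain of male wild-type C57BL/6J mice, with medial prefrontal cortex named in the series title. Mice entered as adolescents (treatment from postnatal day 25) or adults (from postnatal day 55), drank water or took antibiotics by mouth, and had saline or morphine (15 mg/kg) injected under the skin for 5 days. The 8 groups are named below by age, drink and injection. The antibiotics themselves are not named in the labels, and neither the time of day at which tissue was taken nor the time since the last injection is recorded, so that time of day and the groups cannot be told apart.

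In the clock of a single cell, CLOCK (or its relative NPAS2) and BMAL1, encoded by Arntl, bind E-box sequences and switch on the Per and Cry genes. PER and CRY proteins then gather in the nucleus and block CLOCK and BMAL1, until casein kinases and ubiquitin ligases have removed them. PER1 and PER2 are needed for a lasting rhythm and PER3 less so. CRY1 is the stronger repressor, and loss of CRY1 speeds the clock while loss of CRY2 slows it. Beyond this loop, Per1 and Per2 are also switched on directly by cAMP signalling, by neuronal activity and by glucocorticoid hormone, and in cortex their messages follow the time of day.

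The promoters are shown because they carry the sites through which the clock and these other signals act. Each window holds the 250 bases before a RefSeq transcript start (GRCm38.p6), written 5′ to 3′ along the gene, with matches to the motifs below in capitals. Per1 has a second start in RefSeq, which is not printed. Per1 lies at chr11:69095217-69109960 on the plus strand (GENCODE M21, GRCm38), and its printed window at chr11:69098699-69098948, inside the gene as GENCODE gives it. Per3 (minus strand) lies at chr4:151003652-151044665, with its window at chr4:151044666-151044915. Cry1 (minus strand) lies at chr10:85131700-85185064, with its window at chr10:85185055-85185304, whose last 10 bases fall in the first exon of the GENCODE model. Cry2 (minus strand) lies at chr2:92403646-92434043, with its window at chr2:92434070-92434319. Per2 (minus strand) lies at chr1:91415982-91459324.
Per1, first start: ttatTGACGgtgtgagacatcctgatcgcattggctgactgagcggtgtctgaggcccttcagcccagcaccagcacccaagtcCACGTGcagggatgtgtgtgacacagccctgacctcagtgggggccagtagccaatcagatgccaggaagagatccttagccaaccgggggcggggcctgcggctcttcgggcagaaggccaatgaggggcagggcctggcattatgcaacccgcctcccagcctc
Per3: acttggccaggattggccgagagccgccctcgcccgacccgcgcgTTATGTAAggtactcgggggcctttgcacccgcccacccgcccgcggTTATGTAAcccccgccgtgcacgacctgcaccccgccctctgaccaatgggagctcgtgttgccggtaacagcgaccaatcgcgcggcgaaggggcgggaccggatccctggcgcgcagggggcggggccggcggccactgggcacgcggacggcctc
Cry1: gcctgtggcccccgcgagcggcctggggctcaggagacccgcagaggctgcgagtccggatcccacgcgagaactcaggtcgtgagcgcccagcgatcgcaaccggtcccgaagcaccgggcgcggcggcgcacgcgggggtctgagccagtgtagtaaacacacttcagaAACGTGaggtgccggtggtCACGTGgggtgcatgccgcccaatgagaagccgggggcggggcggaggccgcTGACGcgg
Cry2: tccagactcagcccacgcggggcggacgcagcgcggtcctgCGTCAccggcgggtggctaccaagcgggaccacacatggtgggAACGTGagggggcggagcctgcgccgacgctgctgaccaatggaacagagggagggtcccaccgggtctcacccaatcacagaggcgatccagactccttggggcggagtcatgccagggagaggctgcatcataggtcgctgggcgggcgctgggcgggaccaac

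The motifs were searched on both strands: the E-box CACGTG bound by CLOCK and BMAL1, its variant CACGTT, the D-box of DBP, TEF and HLF (TTATGTAA or TTACGTAA), the ROR element, and the cAMP response element TGACGTCA with its 5-letter core TGACG, which lies inside it. Per1 had an E-box at positions -166 to -161 from the start and the TGACG core at -246 to -242. Cry1 had an E-box at -60 to -55, the variant (on the other strand, read as AACGTG) at -79 to -74, and the core at -8 to -4. Cry2 had the variant at -166 to -161 and the core, on the other strand, at -209 to -205. Per3 differed from these 3 printed windows: it held no E-box of either kind and 2 D-boxes, at -205 to -198 and at -158 to -151. The window before the second Per1 start, which is not printed, also held no E-box of either kind. None of the 4 printed windows held the full cAMP response element or the ROR element. Over 32851 RefSeq windows of the same length, 6.02% held CACGTG, 3.85% the variant, 0.931% a D-box, 17.8% the TGACG core, 1.55% the full cAMP response element and 0.177% the ROR element. These matches describe the letters only.

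Depth was 10630727 to 31560468 counts in 35 libraries (median 15910823). The 2 other libraries, adolescent antibiotics saline replicate 3 and adult antibiotics morphine replicate 4, held 25165 and 58764 counts, with 0 to 19 counts of each of the 5 genes, and were left out. Groups then had 3 to 5 libraries. Cortical excitatory neuron markers (Slc17a7 and Tbr1) summed to 1304 to 2120 CPM (counts per 1000000 of the TMM-scaled total) over the libraries, so that markers of cortex were present in all of them. Adolescent water saline replicate 1 stood apart: striatal markers summed to 816.3 CPM there against 65.34 to 94.92 CPM elsewhere in its group (4 libraries), and myelin markers to 16570 CPM against 1003 to 2439 CPM. It was also the lowest library of all for Per3 and Cry2. Transcripts of pancreatic islets (513 to 1134 counts) were present in 7 adolescent libraries: water saline replicate 5, water morphine replicates 3 and 5, antibiotics saline replicate 1 and antibiotics morphine replicates 1, 3 and 4. Calls of the 5 genes that change without these libraries are given with and without them. Adult antibiotics saline replicate 2 also stood apart, with counts that differed from the other libraries of its group by a chi-square of 34.41 to 53.98 per degree of freedom, against 3.97 to 13.53 among those 4, with striatal markers at 91.38 CPM and myelin markers at 1397 CPM. No call of the 5 genes was lost without it, and 1 was gained, which is named below. Nothing in the labels says that the replicates came from separate animals, so p-values measure the spread between these libraries, which may be technical.

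All 5 genes were well measured, from 133 counts of Cry1 in its lowest library to 5504 counts of Cry2 in its highest. Per kilobase of exon, so that genes can be compared, Cry2 was the most abundant at 25.9 ± 1.88 CPM (SD, n = 35) and Per1 followed at 20.4 ± 3.05. Per2 was at 8.85 ± 1.48 CPM per kilobase, Cry1 at 5.76 ± 1.24 and Per3 at 5.59 ± 0.711. Cry1 varied most: it ranged from 12.5 to 28.5 CPM over the libraries (2.28-fold), and 82.8% of its variance on the log2 scale lay between the groups. Cry2 varied least, from 131.1 to 184.8 CPM (1.41-fold), with 52.9% between the groups. Per1, Per2 and Per3 ranged 1.78-fold, 1.83-fold and 1.69-fold, with 67.8%, 76.4% and 63.2% between the groups. Per3 overlaps Camta1 on the same strand and Cry2 overlaps D930015M05Rik on the opposite strand. No source used here gives a strand setting, so that reads where these genes overlap may not have been told apart.

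**Figure D1:**
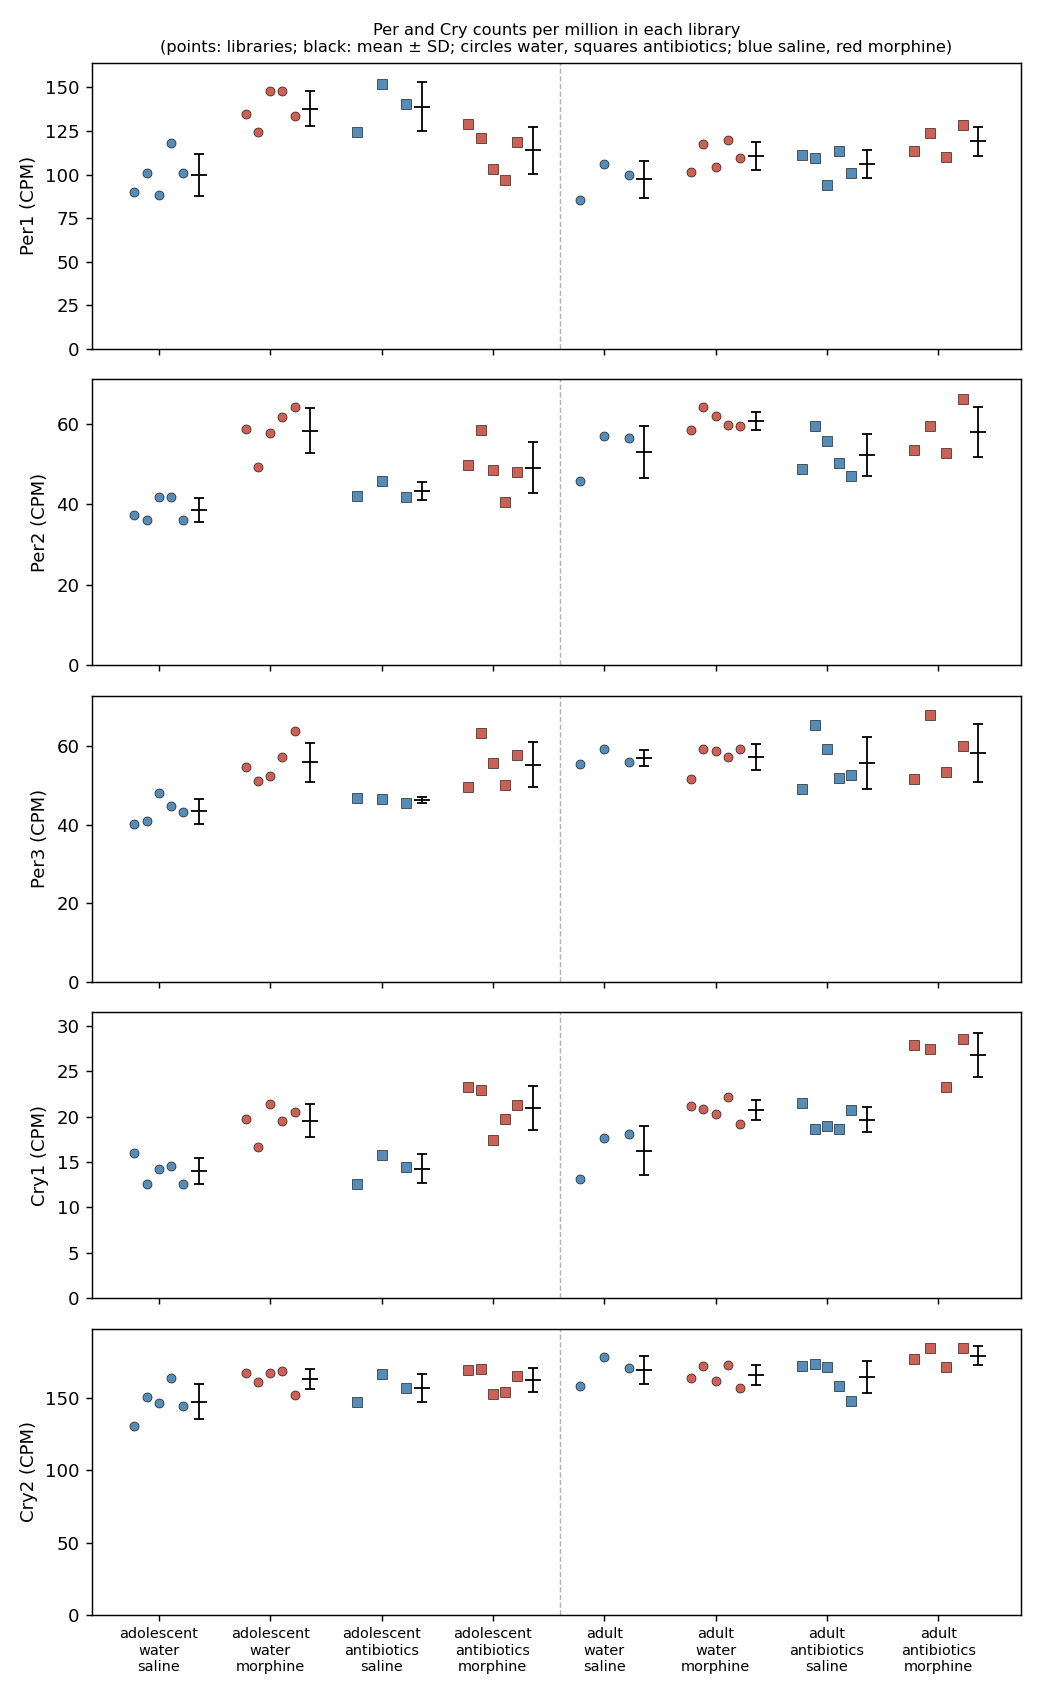
Level of each of the 5 genes in CPM (vertical axis, from 0) in every library, by group (horizontal axis), with the group mean and SD in black. The adolescent water saline group has the lowest mean for Per2, Per3, Cry1 and Cry2, and the adult antibiotics morphine group has the highest mean for Per3, Cry1 and Cry2.

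The ranking of the groups differed by gene. Adolescent mice on water with saline had the lowest mean of Per2 (38.6 ± 2.98 CPM, SD, n = 5), Per3 (43.4 ± 3.16), Cry1 (14.01 ± 1.44) and Cry2 (147.7 ± 12.01), and adult mice on water with saline had the lowest mean of Per1 (97.2 ± 10.6 CPM, n = 3). For Per1 the means went up by small steps, each within the groups' spread, from there to 119.0 ± 8.56 CPM in adult antibiotics morphine mice (n = 4). They then stepped up by more than the spread to the 2 highest groups, adolescent water morphine (137.7 ± 10.01 CPM, n = 5) and adolescent antibiotics saline (138.9 ± 14.02 CPM, n = 3). For Per3 the step came lower: adolescent water saline and adolescent antibiotics saline (46.2 ± 0.769 CPM, n = 3) lay below the other 6 groups, whose means fell between 55.3 and 58.2 CPM and did not differ from their neighbours beyond the spread. Cry1 had 3 levels, with 3 of the 4 saline groups at 14.01 to 16.3 CPM, 4 groups at 19.5 to 20.9 CPM, and adult antibiotics morphine mice alone at 26.7 ± 2.41 CPM (n = 4). Adult antibiotics morphine mice also had the most Cry2 (179.6 ± 6.42 CPM).

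The first comparison asks what morphine did in adolescents on water. All of Per1, Per2, Per3 and Cry1 rose, by 1.29-fold to 1.51-fold, and Cry2 alone did not pass. Of all genes tested, 0.331% passed in this comparison, 0.186% as higher with morphine, and 4 of the 5 clock repressors did. The groups did not overlap for 1.39% of all genes. As in any bulk tissue, more messages per cell and more of the cells that hold them cannot be told apart.

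Per2, the period gene whose loss most disturbs the rhythm, was at 37.2, 36.1, 41.9, 41.8 and 36.1 CPM in the 5 saline libraries and at 58.6, 49.2, 57.8, 61.6 and 64.2 CPM in the 5 morphine libraries. Every morphine library lay above every saline library, with a gap from 41.9 to 49.2 CPM. The difference was 0.59 on the log2 scale (SE 0.08, adjusted p = 0.000199, edgeR's quasi-likelihood test with Benjamini-Hochberg adjustment), a 1.51-fold rise.

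Per1, an immediate early gene as well as a clock gene, was at 90.0, 101, 88.4, 118 and 101 CPM with saline and at 134, 125, 148, 148 and 134 CPM with morphine. The groups did not overlap here either, although saline replicate 4 came close. Per1 rose by 0.47 (SE 0.08, adjusted p = 0.00782, edgeR).

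Cry1 was at 16.0, 12.6, 14.3, 14.6 and 12.6 CPM with saline and at 19.8, 16.6, 21.4, 19.5 and 20.5 CPM with morphine. The highest saline library was replicate 1, the one with striatal markers, and it stayed below the lowest morphine library. The rise was 0.47 (SE 0.09, adjusted p = 0.0144, edgeR).

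Per3 was at 40.2, 40.8, 48.0, 44.8 and 43.1 CPM with saline and at 54.6, 51.1, 52.4, 57.3 and 63.7 CPM with morphine. Its groups were apart as well, and the rise was 0.36 (SE 0.08, adjusted p = 0.0244, edgeR). Cry2, at 131 to 164 CPM with saline and 152 to 169 CPM with morphine, overlapped between the groups, and its difference of 0.15 (SE 0.05) did not pass (adjusted p = 0.219, edgeR). Its 95% interval reached from 0.04 to 0.25.

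The rises of Per1 and Per2 passed in all 35 fits that left out 1 library. That of Per3 was lost in 4 of them, those leaving out adolescent water saline replicate 1 or 2 and those leaving out water morphine replicate 4 or 5 (adjusted p up to 0.126, edgeR), and that of Cry1 in the fits without adolescent water morphine replicate 3 or 5 (up to 0.0653). Without the library with striatal markers, Per1 was at 0.43, Per2 at 0.58, Per3 at 0.34 and Cry1 at 0.53 (adjusted p = 0.0405, 0.00401, 0.0854 and 0.00929, edgeR). None of the marker genes of 12 cell types passed in this comparison. Striatal markers had a median log2 difference of -1.73 and myelin markers of -0.80, carried by that library: the median summed level was 76.25 CPM with saline and 87.46 CPM with morphine for striatal markers, and 1830 and 2278 CPM for myelin markers. Without the 7 libraries with islet transcripts, the differences were 0.45 for Per1, 0.52 for Per2, 0.32 for Per3 and 0.36 for Cry1, and none passed (adjusted p = 0.09, 0.0652, 0.224 and 0.224, edgeR). A fit of these 2 groups alone called Per2 only (adjusted p = 0.0392, edgeR), with Per1 at 0.137, Per3 at 0.314 and Cry1 at 0.314.

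**Figure D2:**
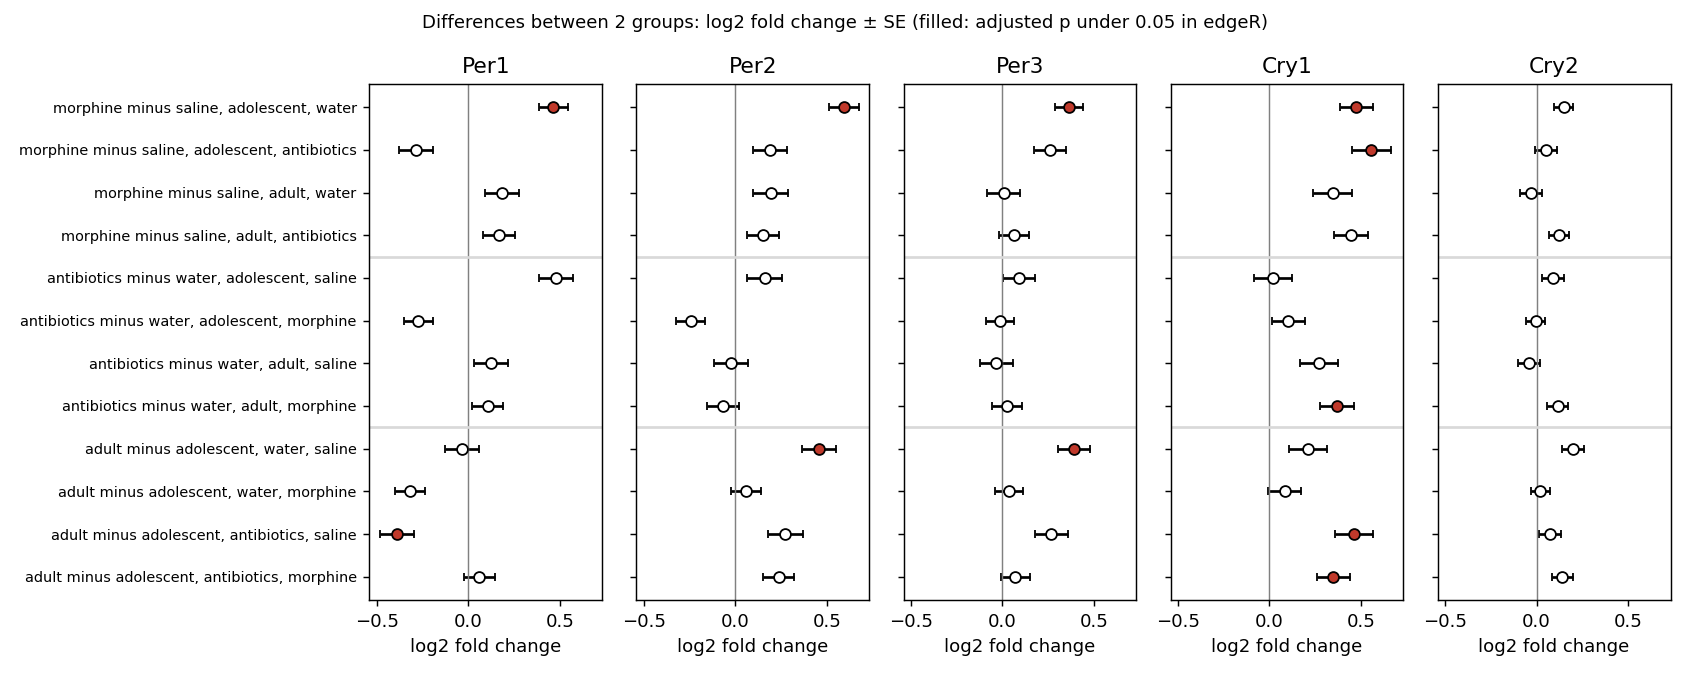
Log2 fold change with its SE (horizontal axis) for each gene in the 12 comparisons of 2 groups (vertical axis), with filled points for adjusted p under 0.05 in edgeR. Filled points for morphine are confined to adolescents, Cry1 alone is filled for antibiotics, and Cry2 is filled nowhere.

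In the other 3 settings of age and drink, Cry1 had every morphine library above every saline library each time, as did Per3 in adolescents on antibiotics and Per2 in adults on water. Of all genes, 8.54% had groups that did not overlap in adolescents on antibiotics, 3.51% in adults on water and 2.22% in adults on antibiotics. In adolescents on antibiotics it was at 12.5, 15.8 and 14.5 CPM with saline and at 23.3, 22.9, 17.4, 19.7 and 21.3 CPM with morphine. The lowest morphine library, replicate 3, was above the highest saline library, and Cry1 rose by 0.56 (SE 0.10, adjusted p = 0.0135, edgeR), the only one of the 5 genes to pass where 0.0466% of all genes did (0.0155% higher). The call was lost without adolescent antibiotics saline replicate 1 or 5 or antibiotics morphine replicate 1 or 2 (adjusted p up to 0.226, edgeR), and without the islet libraries (0.55, adjusted p = 0.487).

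In adults on water Cry1 was at 13.1, 17.6 and 18.1 CPM with saline and at 21.1, 20.9, 20.3, 22.1 and 19.2 CPM with morphine. In adults on antibiotics it was at 21.5, 18.6, 18.9, 18.6 and 20.7 CPM with saline and at 27.8, 27.4, 23.2 and 28.5 CPM with morphine. Neither difference passed, although the libraries did not overlap. It was 0.34 on water (SE 0.11, adjusted p = 1, edgeR) and 0.44 on antibiotics (SE 0.09, adjusted p = 0.116). DESeq2 called the second (adjusted p = 0.0154) and not the first.

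In both adult comparisons 0% of all genes passed in edgeR, with 559 genes on water and 1524 on antibiotics at an unadjusted p under 0.05. DESeq2 called 0 genes on water and 14 on antibiotics. The estimates for Per1 in adults were 0.18 on water and 0.17 on antibiotics, and those for Per2 were 0.19 and 0.15. Per3 was at 0.01 and 0.06, and Cry2 at -0.03 and 0.12. On water the 95% intervals reached up to 0.38 for Per1 and 0.39 for Per2, and from -0.17 to 0.19 for Per3.

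Averaged with equal weight over the 4 settings, morphine raised Cry1 by 0.45 (SE 0.05, adjusted p = 4.5e-07, edgeR) and Per2 by 0.28 (SE 0.04, adjusted p = 0.00148). Here 0.316% of all genes passed (0.129% higher), and both calls held in all 35 fits without 1 library and in the 8 other fits, including the one without the islet libraries (Cry1 at 0.42 with adjusted p = 5.89e-05, Per2 at 0.29 with adjusted p = 0.0166, edgeR). Per3 lay just outside at 0.17 (SE 0.04, adjusted p = 0.0529, edgeR), and passed in 7 of the 35 fits without 1 library, among them those without adolescent water saline replicate 1 (0.17, adjusted p = 0.0467, edgeR) and adult antibiotics saline replicate 2 (0.19, 0.0289). It also passed with no filter on low counts (0.0351), with the replicate block (0.0430) and in DESeq2 (0.0155), and without the islet libraries it was 0.20 (0.188). Per1 was at 0.13 (SE 0.04, adjusted p = 0.202, edgeR) and Cry2 at 0.07 (SE 0.03, adjusted p = 0.3). Of 3 microglial markers 1 was lower with morphine in the same average, with a list median of -0.15, and its part in these results was not tested.

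Per1 was the only one of the 5 genes whose test of how the 2 treatments combined passed, and it did so in adolescents. Its level with saline was higher on antibiotics than on water, and with morphine it was higher on water than on antibiotics. The antibiotics saline libraries were at 124, 152 and 140 CPM, and the antibiotics morphine libraries at 129, 121, 103, 97.0 and 119 CPM. All 3 of the former lay above 4 of the latter, with antibiotics morphine replicate 1 between them.

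The morphine effect on antibiotics was therefore -0.29 (SE 0.09, adjusted p = 0.401, edgeR), against 0.47 on water. The difference between the effects, tested as an interaction, was -0.75 (SE 0.12, adjusted p = 0.00341, edgeR), in a contrast where 0.0621% of all genes passed, all of them lower. It passed in all 35 fits without 1 library, with its highest adjusted p of 0.0386 without adolescent antibiotics saline replicate 2, and stood at -0.71 (adjusted p = 0.0123) without the library with striatal markers. Without the 7 islet libraries it was -0.73 with adjusted p = 0.172 (edgeR), in a fit that left 2 libraries in each antibiotics group.

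The same interaction was -0.40 for Per2 (SE 0.12, adjusted p = 0.493, edgeR), -0.10 for Per3, 0.08 for Cry1 and -0.10 for Cry2, none of which passed. In adults, where 0.00517% of all genes passed, the Per1 interaction was -0.02 (SE 0.13, adjusted p = 1, edgeR), with an interval from -0.28 to 0.24. Whether the interaction itself differed with age was tested as a 3-way term, which was 0.73 for Per1 (SE 0.18) and did not pass (adjusted p = 0.393, edgeR). Nor did any other of the 35 interaction tests on these genes.

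Of 11 tested genes induced by neuronal activity (among them Fos, Arc and Nr4a1), 0 passed in this contrast, and their median was -0.85 against 0.01 over all genes. Nr4a1, an immediate early transcription factor, averaged 85.7 ± 28.4 CPM (SD, n = 5) on water with saline, 100.02 ± 10.7 on water with morphine (n = 5), 117.3 ± 16.9 on antibiotics with saline (n = 3) and 60.5 ± 5.09 on antibiotics with morphine (n = 5). Its interaction was -1.18 (SE 0.27, adjusted p = 0.154, edgeR). The part of neuronal activity in the Per1 result was not tested.

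**Figure D3:**
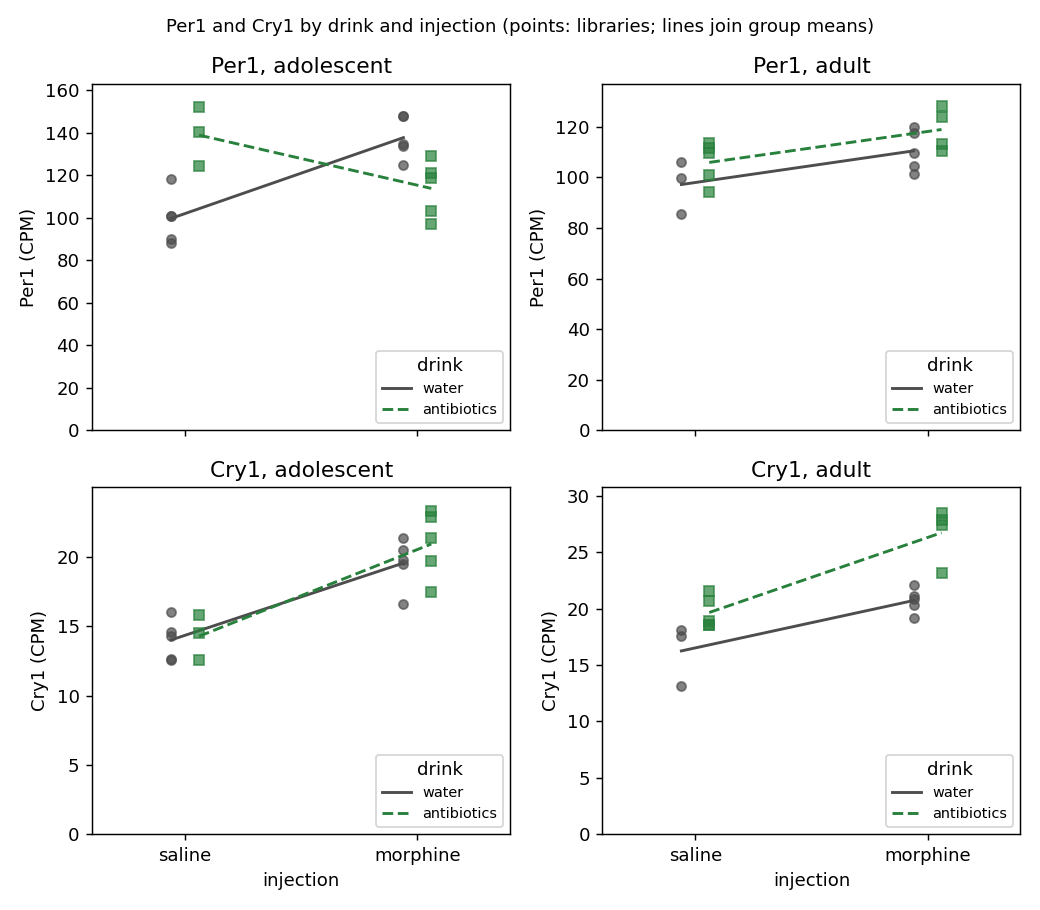
Per1 (top) and Cry1 (bottom) in CPM (vertical axis, from 0) against injection (horizontal axis) in adolescents (left) and adults (right), with libraries as points and lines joining the group means for water and antibiotics. The Per1 lines cross in adolescents, from 99.7 to 137.7 CPM on water and from 138.9 to 113.8 CPM on antibiotics, while those of Cry1 slope upward in all 4 pairs of groups.

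With antibiotics, 1 of the 20 tests in pairs of groups passed, that of Cry1 in adults with morphine. In adolescents with saline, Per1 was higher on antibiotics by 0.48 (SE 0.09), with no overlap between 88.4 to 118 CPM on water and 124 to 152 CPM on antibiotics, but adjusted p was 0.0594 in edgeR, where 0.0103% of all genes passed and 5.37% had groups that did not overlap. DESeq2 called it (adjusted p = 0.00289), as did 9 of the 35 edgeR fits without 1 library and the fit without the islet libraries (0.56, adjusted p = 0.0406). Without the library with striatal markers it was 0.44 with adjusted p = 0.2 (edgeR), and in a fit of only these groups adjusted p was 0.879. This comparison shares its water saline libraries with the morphine comparison above. In adolescents with morphine, Per1 was at -0.27 (SE 0.08, adjusted p = 0.0912, edgeR) and Per2 at -0.24 (SE 0.08, adjusted p = 0.143), where 1.11% of all genes passed, and Per1 alone was called by DESeq2 (adjusted p = 0.0455). Without the islet libraries, which are 5 of these 10, the estimates were -0.18 for Per1 and -0.08 for Per2 (adjusted p = 0.76 and 0.931, edgeR).

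In adults with morphine, Cry1 rose with antibiotics by 0.37 (SE 0.09, adjusted p = 0.0264, edgeR), from 19.2 to 22.1 CPM on water to 23.2 to 28.5 CPM on antibiotics. The lowest antibiotics library, replicate 3, was above the highest water library. In this comparison 1.92% of all genes passed (0.916% higher) and 5.56% had groups that did not overlap, and the Cry1 call was lost in 7 of the 35 fits without 1 library, those without adult water morphine replicate 1, 2, 3 or 5 or adult antibiotics morphine replicate 1, 2 or 5 (adjusted p up to 0.102, edgeR). In adults with saline, where 0.031% of all genes passed, none of the 5 did, with Cry1 at 0.27 (SE 0.10, adjusted p = 0.413, edgeR).

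Averaged over the 4 settings, antibiotics raised Cry1 by 0.19 (SE 0.05, adjusted p = 0.00894, edgeR) and passed for none of the others, in a contrast where 10.2% of all genes passed (5.16% higher and 5.05% lower). The Cry1 call held in all 35 fits without 1 library. By setting, the Cry1 estimate was 0.02 (SE 0.10) in adolescents with saline and 0.10 (SE 0.09) in adolescents with morphine. In adults it was 0.27 with saline and 0.37 with morphine. The tests of whether the antibiotics effect on Cry1 differed with age did not pass. Of 4 astrocyte markers 2 were lower on antibiotics in this average, as were 2 of 3 microglial markers. Summed striatal markers had group medians of 76.25 to 87.46 CPM on water and 100 to 120.2 CPM on antibiotics. In adults with morphine they were at 72.4 to 112.5 CPM on water and 110 to 127.8 CPM on antibiotics. The part of these markers in the Cry1 result was not tested.

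Age was the factor with calls for all 5 genes, but in a contrast where many genes passed. Averaged over the 4 treatments, adults had more Cry1 (0.28, SE 0.05), Per2 (0.26, SE 0.04), Per3 (0.19, SE 0.04) and Cry2 (0.11, SE 0.03) and less Per1 (-0.17, SE 0.04), with adjusted p = 9.45e-05, 8.13e-05, 0.00114, 0.00621 and 0.0057 in edgeR. In this average 20.3% of all genes passed (9.11% higher and 11.2% lower). By treatment, the Per1 estimate was -0.04 (SE 0.09) on water with saline and -0.32 (SE 0.08) on water with morphine. On antibiotics it was -0.39 (SE 0.09) with saline and 0.06 (SE 0.09) with morphine. All 5 calls in the average held in the 35 fits without 1 library. The Cry2 call was lost with a term for the islet libraries (adjusted p = 0.0757, edgeR) and without those libraries (0.113), all of which are adolescent. Of 3 microglial markers 2 were lower in adults. Summed cortical excitatory neuron markers had group medians of 1960 to 1997 CPM in adolescents and 1719 to 1766 CPM in adults. The part of these markers in the age differences was not tested.

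Within treatments the calls for age fell on different genes, which does not show that the age differences themselves changed between treatments. On water with saline, Per2 was at 36.1 to 41.9 CPM in adolescents and at 45.6, 57.0 and 56.4 CPM in adults, a rise of 0.46 (SE 0.09, adjusted p = 0.00451, edgeR). Per3 was at 40.2 to 48.0 CPM in adolescents and at 55.5, 59.3 and 55.9 CPM in adults, a rise of 0.39 (SE 0.09, adjusted p = 0.0091). The adolescent libraries here are also the saline side of the morphine comparison in adolescents on water. The rises of Per2 and Per3 with age and with morphine are therefore not independent. Neither gene overlapped between the ages, 3.39% of all genes passed (1.47% higher) and 12% did not overlap, and both calls were lost without adult water saline replicate 3 (adjusted p = 0.0525 and 0.0663, edgeR) and in a fit of only these groups (0.0751 and 0.0598). Both held without the library with striatal markers (0.45 and 0.37, adjusted p = 0.0085 and 0.0172, edgeR) and without the islet libraries (0.43 and 0.39, 0.00956 and 0.0120).

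On water with morphine the age differences of these genes were 0.06 (SE 0.08) for Per2 and 0.03 (SE 0.08) for Per3 and did not pass, where 0.626% of all genes did. Whether the age difference changed with morphine is the test of the morphine effect between ages, which was -0.40 for Per2 (SE 0.12, adjusted p = 0.527, edgeR) and -0.36 for Per3 (SE 0.12, adjusted p = 0.527) and did not pass. Per1 was lower in adults there, at 101 to 120 CPM against 125 to 148 CPM, without overlap (as for 3.23% of all genes), but the difference of -0.32 (SE 0.08) had adjusted p = 0.0592 in edgeR. It passed in DESeq2 (adjusted p = 0.0152), with the replicate block (0.0435, edgeR), in a fit of only these groups (0.0133) and in 4 of the 35 fits without 1 library, among them the one without the library with striatal markers (0.0417), which is in neither group.

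On antibiotics with saline, where 1.39% of all genes passed (0.388% higher and 0.998% lower), Per1 fell by 0.39 on the log2 scale (SE 0.09, adjusted p = 0.0237, edgeR), from 124, 152 and 140 CPM in adolescents to 111, 110, 94.2, 114 and 101 CPM in adults. Cry1 went the other way and rose by 0.46 (SE 0.10, adjusted p = 0.0161, edgeR), from 12.5, 15.8 and 14.5 CPM to 21.5, 18.6, 18.9, 18.6 and 20.7 CPM. The ages did not overlap for either gene, as for 11.4% of all genes. They did not overlap for Per2 and Per3 either, which rose by 0.27 each (SE 0.09) and did not pass (adjusted p = 0.146 and 0.125, edgeR). The Per1 call was lost without adolescent antibiotics saline replicate 2 or 5 or adult antibiotics saline replicate 3 (adjusted p up to 0.192, edgeR), and the Cry1 call without adolescent antibiotics saline replicate 1 or 5 (up to 0.121). With no filter on low counts Per1 was at -0.40 (adjusted p = 0.0581, edgeR), and without the islet libraries Cry1 was at 0.38 (adjusted p = 0.105).

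On antibiotics with morphine, where 1.87% of all genes passed (0.74% higher and 1.13% lower), Cry1 rose by 0.35 with age (SE 0.09, adjusted p = 0.0368, edgeR). Its libraries overlapped narrowly, at 17.4 to 23.3 CPM in adolescents and 23.2 to 28.5 CPM in adults, and the call was lost in 6 of the 35 fits without 1 library. Those were the fits without adolescent antibiotics morphine replicate 3, 4 or 5 or adult antibiotics morphine replicate 1, 2 or 5 (adjusted p up to 0.123, edgeR). It was also lost with all 37 libraries (0.0525), with no filter on low counts (0.0533), with the replicate block (0.0613), with an islet term (0.115) and without the islet libraries (0.27, adjusted p = 0.358, edgeR).

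Among the other clock genes, the calls with morphine fell mainly on the PAR bZIP group. With morphine in adolescents on water, 0 of 4 activators, 0 of 5 genes of the nuclear receptor loop and 0 of 8 kinases and ligases of PER and CRY passed, with medians of -0.07, 0.20 and 0.01 against -0.01 over all genes. Of 4 genes whose proteins bind the D-box (Dbp, Tef and Hlf of the PAR bZIP family and their opponent Nfil3), 3 rose: Hlf by 0.41 (SE 0.07), Dbp by 0.31 (SE 0.06) and Tef by 0.18 (SE 0.04), with adjusted p = 0.00782, 0.00782 and 0.0222 in edgeR. Dbp was at 106 to 112 CPM with saline and 131 to 143 CPM with morphine, without overlap, as for 1.39% of all genes. In this comparison 0.331% of all genes passed, 0.186% as higher. Of 4 other repressors, Ciart, which blocks CLOCK and BMAL1, rose by 0.53 (SE 0.11, adjusted p = 0.0244, edgeR). Without the 7 islet libraries 0 of all genes passed in this comparison, and the fit of these 2 groups alone called Per2 only. The calls of Hlf, Dbp, Tef and Ciart were therefore lost in both fits.

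Arntl, which encodes BMAL1 and peaks opposite to the Per genes, averaged 21.4 ± 2.28 CPM (SD, n = 5) with morphine against 24.95 ± 1.80 CPM (n = 5) with saline, a difference of -0.22 (SE 0.08) that did not pass (adjusted p = 0.258, edgeR). Of 12 glucocorticoid-induced genes only Zbtb16, a transcription factor, rose (0.42, SE 0.09, adjusted p = 0.0309, edgeR), and the median of the list was 0.13. The Zbtb16 call was also lost without the islet libraries and in the fit of these groups alone. Of 11 activity-induced genes 0 passed, with a median of 0.18. The part of hormone, activity or time of day in the rise of the Per genes was not tested.

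In the morphine average over the 4 settings, Tef (0.12, SE 0.02, adjusted p = 0.00148, edgeR) and Hlf (0.17, SE 0.04, adjusted p = 0.0495) rose beside Per2 and Cry1, and Nr1d1, the nuclear receptor that represses Arntl, fell by 0.13 on the log2 scale (SE 0.03, adjusted p = 0.0376). Of the glucocorticoid-induced genes 1 of 12 rose in this average, Plin4, which encodes a lipid droplet protein (0.88, SE 0.17, adjusted p = 0.0173, edgeR). Without the islet libraries 4 of all genes passed in this average, 3 higher and 1 lower, with Cry1 and Per2 among them. The calls of Tef, Hlf, Nr1d1 and Plin4 therefore cannot all have held in that fit. In the antibiotics comparison of adults with morphine, in which Cry1 rose, Dbp fell by 0.30 (SE 0.06, adjusted p = 0.00422, edgeR), from 113 to 131 CPM to 91.7 to 111 CPM. The glucocorticoid-induced genes Fkbp5, a receptor chaperone, and Plin4 rose in that comparison by 1.01 and 2.08 (adjusted p = 0.00026 and 7.44e-05, edgeR), 2 of 12 in the list.

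With age, averaged over the treatments, the other clock lists had calls in a contrast where 20.3% of all genes passed, so that shares near that, such as 2 of 8, are no result about a list. Here 2 of 4 activators rose, Arntl by 0.20 (SE 0.04, adjusted p = 0.00106, edgeR) and Arntl2 by 0.32 (SE 0.10, adjusted p = 0.0221). In the nuclear receptor loop Nr1d2 rose by 0.15 (adjusted p = 0.000125, edgeR) and Nr1d1 fell by 0.14 (adjusted p = 0.000388). Of the 4 other repressors 2 rose, Bhlhe41 and Bhlhe40, each by 0.18 (adjusted p = 0.00257 and 0.0363, edgeR), and both encode proteins that compete for E-boxes. Of the D-box group Hlf rose by 0.15 and Dbp fell by 0.10 (adjusted p = 0.00732 and 0.0201, edgeR). Among the kinases and ligases 2 of 8 rose, Btrc and Fbxw11, by 0.10 and 0.06 (adjusted p = 0.00293 and 0.0233, edgeR), and both encode ubiquitin ligase subunits that mark PER proteins for breakdown. Of 12 glucocorticoid-induced genes 2 rose with age and 3 fell, led by Plin4 (1.52, SE 0.17, adjusted p = 1.8e-07, edgeR), and of 11 activity-induced genes Fosb alone passed (0.39, SE 0.07, adjusted p = 0.000179). The part of these in the age differences was not tested.

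**Figure D4:**
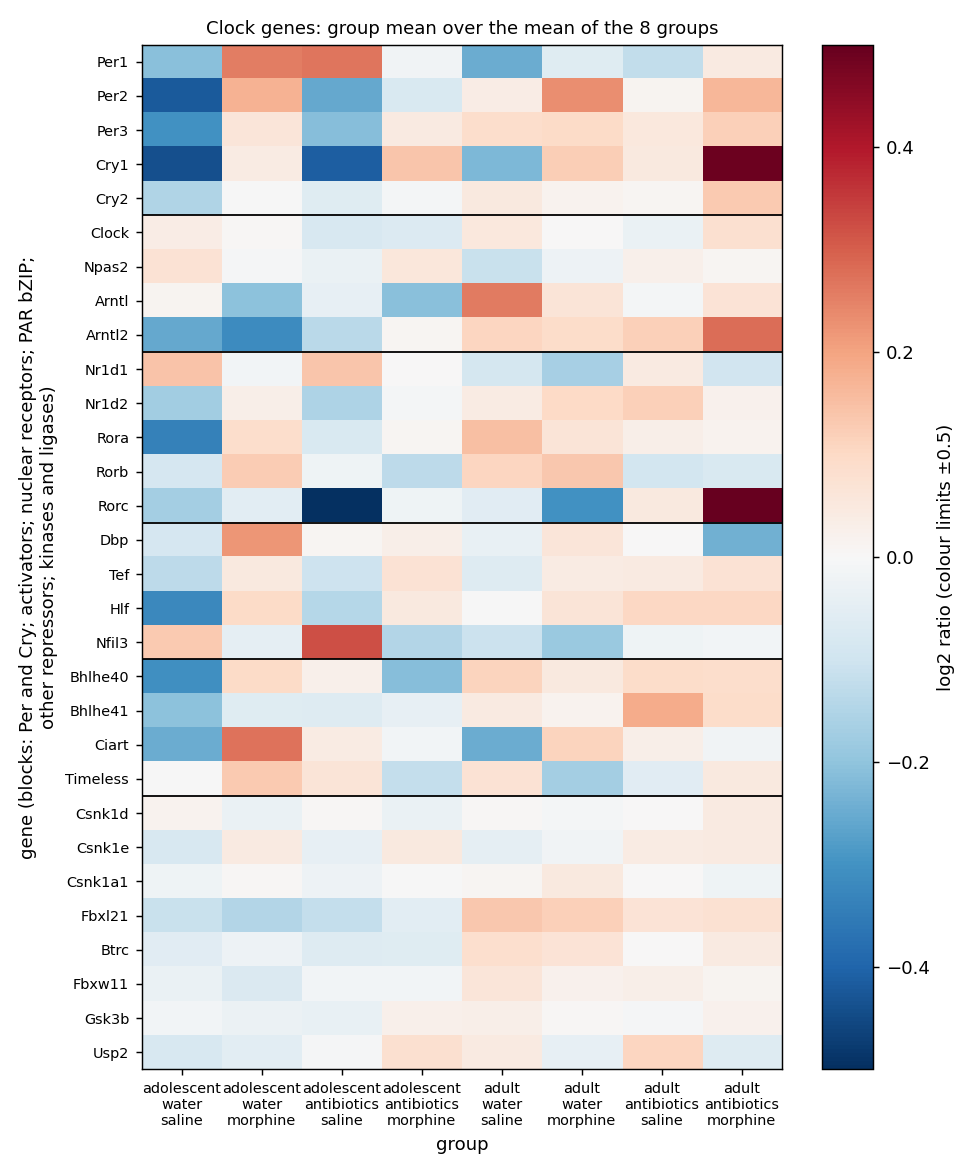
Group mean of each clock gene as a log2 ratio to the mean of the 8 groups (colour, limited to ±0.5), with genes in rows by role and groups in columns. Per2, Per3 and Cry1 are blue in adolescent mice on water or antibiotics with saline, Per1 is red in adolescent water morphine and adolescent antibiotics saline mice, and most kinases and ligases stay near white.

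Within the groups, the libraries differed from one another in a shared way for some of these genes. After each group's mean had been subtracted, Per2 and Per3 varied together over the 35 libraries (Pearson's r = 0.735, permutation p = 5e-05, adjusted p = 0.0012 over 30 pairs, Spearman's rho = 0.775, permutation p = 2e-05), and r was 0.69 without the 2 libraries farthest from the median of Per2. Per1 and Cry2 did the same (r = 0.715, permutation p = 8e-05, adjusted p = 0.0012, rho = 0.725, permutation p = 5e-05), with r = 0.659 without 2 libraries. All genes of a library share its depth and tissue composition.

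Other pairs of the 5 genes had lower values. Per1 with Cry1 had r = 0.532 (permutation p = 0.00744, adjusted p = 0.0372, rho = 0.544, permutation p = 0.00603), Per2 with Cry2 had r = 0.531 (permutation p = 0.00298, adjusted p = 0.0298, rho = 0.568, permutation p = 0.00187) and Per1 with Per2 had r = 0.511 (permutation p = 0.00712, adjusted p = 0.0372, rho = 0.471, permutation p = 0.0121). The rho of Per1 with Per2 did not pass its own adjustment (0.0725). Without the 2 farthest libraries, r was 0.541, 0.496 and 0.417 for these 3 pairs, and of all 30 pairs only Per2 with Per3 and Per1 with Cry2 still passed. Per3 and Cry1 gave a correlation near 0 in these libraries (r = 0.049, permutation p = 0.789, rho = -0.002, permutation p = 0.992), although both rose with morphine in adolescents on water.

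Of the 20 pairs with Arntl, Dbp, Nr1d1 and Fos, only Cry2 with Arntl passed on r (r = 0.494, permutation p = 0.0059, adjusted p = 0.0372, rho = 0.451, permutation p = 0.0169, adjusted 0.0846), and its r was 0.384 without adolescent water saline replicate 1 and adult antibiotics saline replicate 5. Without the former alone this call was lost (r = 0.452, adjusted p = 0.0622, permutation test). In the same 34 libraries Cry1 with Cry2 passed (r = 0.562, adjusted p = 0.0182, permutation test), against r = 0.359 in all 35 (permutation p = 0.0635, adjusted p = 0.212, rho = 0.392, permutation p = 0.0479), and so did Per2 with Cry1 (r = 0.535, adjusted p = 0.0433, permutation test, against r = 0.489 with adjusted p = 0.0702). Per1 with Fos had r = 0.386 (permutation p = 0.0461, rho = 0.423, permutation p = 0.027), which did not pass after adjustment (0.173).

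**Figure D5:**
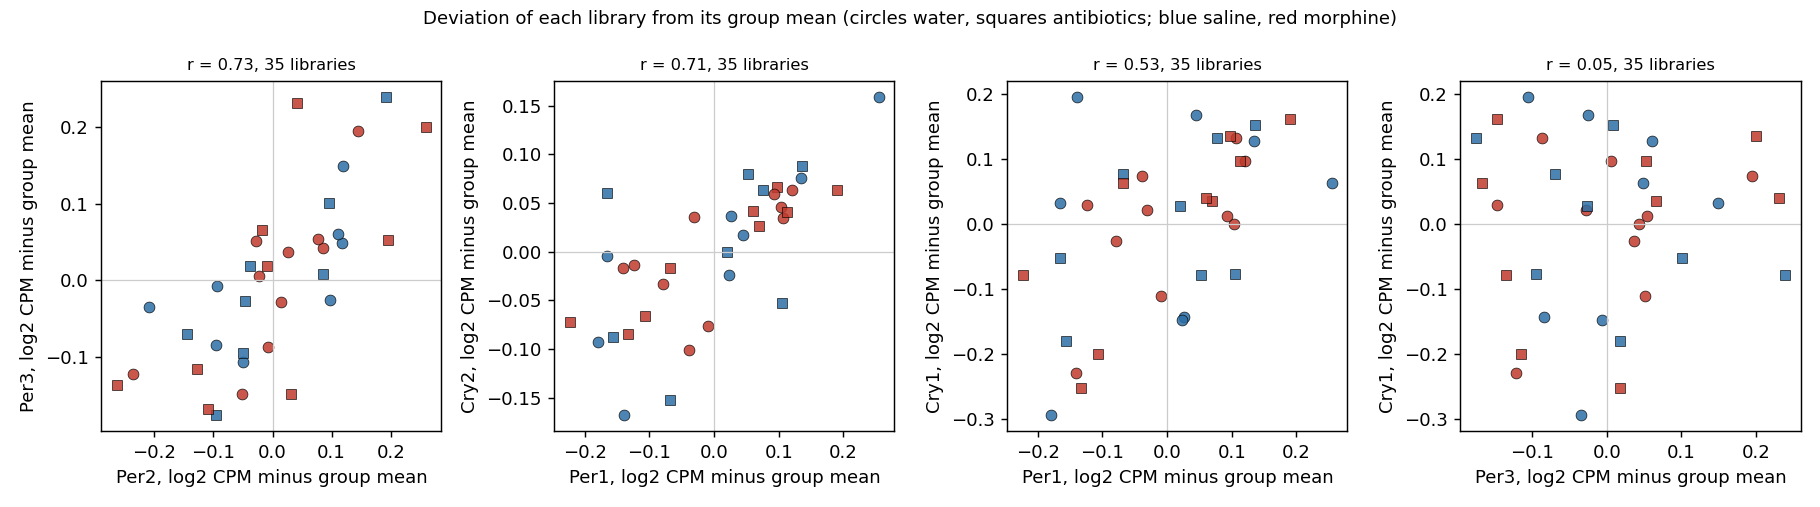
Each of the 35 libraries as its deviation from its group mean in log2 CPM, for Per3 against Per2, Cry2 against Per1, Cry1 against Per1 and Cry1 against Per3. The points rise from lower left to upper right in the first pair of panels (r = 0.735 and 0.715), more loosely in the third (0.532), and not in the fourth (0.049).

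Over the 35 libraries without subtracting group means, the gene most like Per2 among 11219 genes was Per3 (r = 0.859), and the gene most like Per3 after Arid5b (0.862) was Per2. The next for Per2 were Arhgef18 (0.80), Arid5b (0.789), Vps13a (0.787) and Map4k2 (0.781), and for Per3 Cacna1d (0.855), Malat1 (0.814) and Peg3 (0.812). Per1 had other neighbours and lower values, with Dusp5 (0.78) first, then the clock repressor Ciart (0.752), Midn (0.727), Ddx19b (0.657) and Sik1 (0.654). For Cry1 they were Mthfd1l (0.836), the PAR bZIP gene Tef (0.784), Lyst (0.765), Tnik (0.756) and Wipf3 (0.75), and for Cry2 Rasgrf1 (0.848), Spire1 (0.829), Gramd1b (0.823), Pfkm (0.819) and Atp2b3 (0.817). These values describe the pattern over libraries that share groups, depth and tissue composition, with no test.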

How the data were processed

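Per the labels' protocols, polyadenylated brain RNA was isolated with an RNeasy Mini kit and sequenced as libraries of an ABclonal RNA-seq kit. The authors deposited unnormalized gene counts of 37 libraries. STAR 2.7.10a, DESeq2 and mm10 appear in the submitters' processing notes. Neither annotation release nor strand setting is given in the sources used here. Symbols from GENCODE M21 matched 52073 of 56980 identifiers, and the unmatched ones held 3.86% of the counts.

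From the 35 libraries over 1000000 counts, differences were computed with edgeR 4.0.16 (R 4.3.3), by TMM scaling, filterByExpr and 1 robust quasi-likelihood fit with a mean per group. The 22 contrasts were 12 of 2 groups, 3 averages and 7 interactions, with Benjamini-Hochberg adjustment over the 19332 genes tested and a threshold of 0.05. Alternatives were DESeq2 1.42.0, its size factors in edgeR, no filter on low counts, all 37 libraries, only the compared groups, a replicate block, an islet term and leaving out each library. The fit without the islet libraries was chosen after seeing the data. Correlations used log2 CPM (prior count 2) and 100000 shuffles within groups. All 5 genes were tested in each contrast, and not every value that did not pass is printed. Other clock genes were named by list where they passed (at most 4 per contrast, by smallest p), glucocorticoid- and activity-induced genes as at most 3, and like genes as the 5 with the highest r. The further clock genes named with age and Arntl with morphine were chosen after their values were seen. The members and lists were chosen with earlier results of these data known, and 2 genes of these lists are not reported here. The procedure was tested on simulated data.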

Additional observations from a re-analysis of the deposited data

Results flagged for a closer look

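Per3 in adult water morphine replicate 1, at 51.53 CPM, lay apart from the other 4 libraries of its group, of which the nearest was at 57.31 CPM, and the gap was 0.746 of the group's range. It was the only such library among 30 combinations of a gene and a group of 4 or more libraries, a check that by chance marks about 1 in 20.

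The effect of morphine on Per1 in adolescents differed between drinks, by -0.75 on the log2 scale (antibiotics minus water) in the interaction test. It is the only one of the 35 interaction tests on these genes that passed.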

How the results depend on the processing

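Of the tests of the 5 genes, 5 of 20 passed for morphine, 1 of 20 for antibiotics, 5 of 20 for age, 8 of 15 for the averages and 1 of 35 for the interactions. Of all genes, 0% to 0.331% passed per comparison for morphine, 0.0103% to 1.92% for antibiotics, 0.626% to 3.39% for age and 0% to 0.0621% for the interactions. In the averages it was 0.316% for morphine, 10.2% for antibiotics and 20.3% for age, and all 5 genes passed in the age average. Leaving out 1 library gave 3 to 6 for morphine, 0 to 2 for antibiotics, 3 to 7 for age, 8 to 9 for the averages and 1 in every fit for the interactions. Without the 7 islet libraries, 0 passed for morphine, 2 for antibiotics, 3 for age and 0 for the interactions. That fit has fewer libraries per adolescent group. The fit of only the compared groups called 2 for morphine, no filter on low counts called 3 for age, and DESeq2 called 3 for antibiotics, and the cause was not tested. No call of these genes turned its direction in any setting run. Of the 30 correlations 6 passed, 2 did without the 2 farthest libraries, and 7 did without adolescent water saline replicate 1, which adds Cry1 with Cry2 and Per2 with Cry1 and loses Cry2 with Arntl.

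With the replicate number as a block, the counts were 5 for morphine, 1 for antibiotics, 6 for age, 9 for the averages and 1 for the interactions. The block lost Cry1 for age on antibiotics with morphine and gained Per1 for age on water with morphine, Cry2 for age on water with saline (adjusted p = 0.0293, edgeR) and Per3 for the morphine average. The numbers showed no pairing over the series as a whole. Deviations of same-numbered libraries had a median correlation of 0.017 over 108 pairs (-0.36 to 0.417), against 0.008 over 425 others (-0.524 to 0.522). These medians cannot tell whether the numbers pair some of the libraries.

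Over all genes, the number passing for morphine in adolescents on water was 64, and 164 in DESeq2, 40 with no filter or an islet term, 1 in the fit of only the compared groups and 0 without the islet libraries, with 9 to 262 on leaving out 1 library. On antibiotics it was 9, and 40 in DESeq2, 28 with the replicate block, 131 in the fit of only the compared groups and 0 without the islet libraries (0 to 33). For the morphine average it was 61, and 163 in DESeq2, 22 with all 37 libraries, 31 with the islet term and 4 without the islet libraries (14 to 251). For antibiotics in adolescents it was 2 with saline (55 in DESeq2, 17 without the islet libraries, 0 to 30) and 214 with morphine (340 in DESeq2, 140 with all 37 libraries, 121 with no filter, 378 in the fit of only the compared groups, 2 without the islet libraries, 62 to 390). In adults it was 6 with saline (46 in DESeq2, 0 in the fit of only the compared groups, 1 to 44) and 371 with morphine (245 with no filter, 102 to 678). For age it was 655 on water with saline (11 in the fit of only the compared groups, 172 to 877), 121 on water with morphine (231 in DESeq2, 44 without the islet libraries, 57 to 292), 268 on antibiotics with saline (484 in DESeq2, 157 with all 37 libraries, 167 without the islet libraries, 64 to 652) and 362 on antibiotics with morphine (583 in DESeq2, 232 with all 37 libraries, 57 without the islet libraries, 108 to 815). The antibiotics average had 1975 (1313 with no filter, 1191 without the islet libraries), and the adolescent interaction 12 (26 in DESeq2, 8 in the fit of only the compared groups, 0 without the islet libraries, 5 to 21). Depth limited Cry1 most, with 133 counts in its lowest library.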

Other observations

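Values of the 5 genes in the 2 libraries left out were too few to read. Adolescent antibiotics saline replicate 3 had 5 counts of Per1, 7 of Cry2 and 0 of Per2, Per3 and Cry1. Adult antibiotics morphine replicate 4 had 16 counts of Per1, 5 of Per2, 3 of Per3, 1 of Cry1 and 19 of Cry2.

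The genes that ran most opposite to the clock repressors over the 35 libraries differed between the 5 as well. The genes named here were singled out, after their values were seen, from the 5 lowest r of each. For Per2 and Per3 they included Mapk8ip1, a scaffold of the JNK pathway (r = -0.821 and -0.803), and the ribosomal stalk gene Rplp0 (-0.772 and -0.775). For Cry2 they were led by Map4, a microtubule-associated protein (-0.864), and included the oligodendrocyte lineage gene Olig1 (-0.811). For Cry1 they were led by Jpt1 (-0.831) and included Fabp7, a fatty acid binding protein of radial glia (-0.77). For Per1 the values were weaker, with Fpgt first (-0.661). These are descriptions with no test.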
